A study of Caenorhabditis elegans with 12 samples.

Results

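The genes described here are the Hox genes of *Caenorhabditis elegans* together with *pal-1*, its caudal homolog, and *vab-7*, its even-skipped homolog. They are 8 genes (*ceh-13*, *lin-39*, *mab-5*, *egl-5*, *php-3*, *nob-1*, *pal-1* and *vab-7*) of the 17118 that the annotation names at a probe set of 1 gene. Every probe set annotated to a member was taken, whatever its signal, which gave 13 probe sets of the 22548 on the array that are not controls. Each gene has 1 probe set except *mab-5* with 2 and *pal-1* and *nob-1* with 3 each.

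The samples were early embryos of strain KM267, in which *hlh-1*, the gene of the *C. elegans* MyoD homolog, is driven by a heat shock promoter. About 80 embryos, recorded as at the 1-cell and 2-cell stage, made up each sample, with 3 independent samples at each time. Those called 0 h were taken without a heat pulse, and the others 2, 4 or 6 h after 30 min of heat at 34 °C. The embryos of the later times had 60 min at room temperature before the pulse, and no such time is recorded for 0 h. No heat-pulsed embryos without the transgene were analysed here, so induced HLH-1, the heat pulse and the age of the embryo cannot be told apart, and all 12 arrays are of whole embryos carrying the transgene. The 3 comparisons with 0 h share the same 3 arrays at 0 h.

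Hox genes encode homeodomain transcription factors that give cells their identity along the body from head to tail. In *C. elegans* most of them start to be transcribed in the embryo, in small sets of cells. The caudal homolog works differently: *pal-1* mRNA is laid down by the mother and translated only in posterior blastomeres, where PAL-1 sets the fate of the C and D lineages, which make body wall muscle and epidermis. VAB-7 acts after PAL-1 to pattern posterior muscle and epidermis. Hox proteins often bind DNA with Pbx and Meis homeodomain partners.

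*hlh-1*, the induced gene, had a signal of 199, 348 and 196 at 0 h, 3684, 4023 and 2801.5 at 2 h, 1552, 1179 and 1341.5 at 4 h, and 861, 1520 and 1652.5 at 6 h (replicates A, B and C). Every heat-pulsed array was above every array at 0 h. Whether this probe set reads the transgene, the gene at its own locus or both was not tested. The 8 body wall muscle markers were all raised at 6 h, their summed signal being 211300 to 274000 at 6 h, against 660 to 2487 at 0 h. Summed over 7 maternal and germ cell markers, the signal was 31160 to 37320 at 0 h, 7034 to 8887 at 2 h and 1149 to 1458 at 4 h. At 6 h it was 4427 in replicate A, against 847 and 575.9 in replicates B and C, so by this sum replicate A of 6 h held more maternal transcript than its partners. *pos-1* alone gave 2842 of it in A, against 186 and 10.7 in B and C. *glp-1* and *glh-1* were not higher in A than in B, and the other genes of the list were highest in A. Called 6 h changes were also computed without replicate A of 6 h. Summed over 6 intestine markers, the signal was 32780 to 42710 at 0 h and 1749 to 3799 at 2 h. In that list *end-1* averaged 29310 at 0 h and 170 at 2 h, and *elt-7* 6645 and 2019. Whether the embryos of 0 h were at the recorded stage was not tested, so the members' signals at 0 h cannot be assigned to that stage. A signal of 69.7, the median of the 12 arrays' 40th percentiles, served as reference level: 18264 probe sets above it on at least 3 arrays were tested, and a call needed an adjusted p under 0.05 (limma, Benjamini-Hochberg over the tested probe sets) and a fold of at least 1.7.

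Of the 13 member probe sets 11 were tested, covering 6 genes, and those of *egl-5* and *php-3* were not. At 2 h against 0 h none of the 11 was raised and 2 were lowered (*ceh-13* and *pal-1*), where 15.5% of all tested probe sets were raised and 9.55% lowered. At an unadjusted p under 0.05 limma gave 3 of the 11 there, those 2 and *vab-7*, all lower. At 4 h against 0 h 2 were raised, both of *mab-5*, and 2 lowered (*pal-1* and *vab-7*), with 17.1% and 11.9% of all probe sets called in those directions. At 6 h against 0 h 3 were raised, 1 each of *ceh-13*, *mab-5* and *nob-1*, and 2 lowered, again of *pal-1* and *vab-7*, with 21.7% and 15.6% called overall. The members had no common direction, and with 11 probe sets, counts of 0 to 3 do not set them apart from these shares. Their median log2 change was -0.28, -0.93 and -0.32 at 2, 4 and 6 h, against 0.11, 0.16 and 0.31 over all tested probe sets. With arrays scaled to one median the last 3 became 0.13, 0.09 and -0.05, and the raised share of all calls at 6 h was 46.5% rather than 58.1%.

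**Figure D1:**
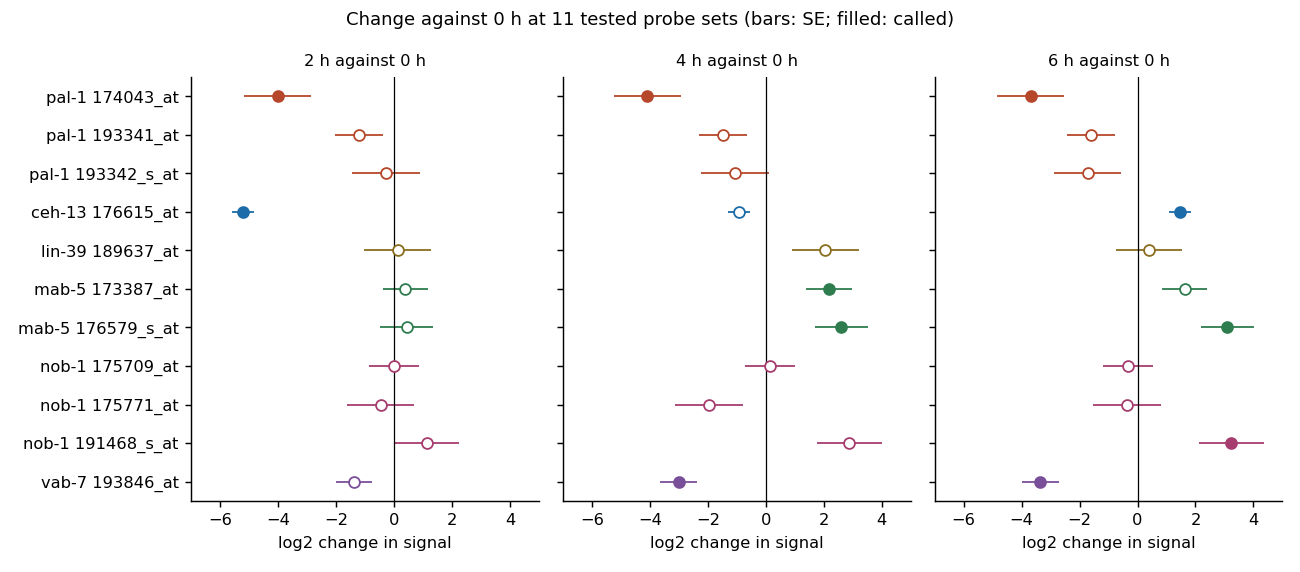
Log2 change in MAS5 signal against 0 h (horizontal axis) at the 11 tested probe sets, with 2, 4 and 6 h in separate panels. Bars are standard errors from limma, and filled circles passed both the adjusted p and the fold limit. The probe set of *ceh-13* lies far to the left at 2 h and to the right at 6 h, *vab-7* and the brightest *pal-1* probe set lie to the left at 4 and 6 h, and both *mab-5* probe sets lie to the right at 4 and 6 h.

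The largest changes among the members were those of *ceh-13*, the labial homolog and the anterior Hox gene. Its signal was 1297, 2456.5 and 2658 at 0 h, 62.1, 27.0 and 96.9 at 2 h, 1415, 941.5 and 917 at 4 h, and 5838.5, 5275 and 5834 at 6 h. At 2 h it lay at or near the reference level, with 1 of 3 arrays above it, and at 6 h all 3 arrays stood above every array of the earlier times. Only the 4 h and 0 h arrays overlapped. In whole embryos, fewer cells holding a transcript and less transcript per cell cannot be told apart.

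Against 0 h, *ceh-13* fell by 5.22 on the log2 scale at 2 h (SE 0.38, adjusted p = 1.67e-08, limma), a signal at least 26.2-fold lower. Here "at least" means that arrays below the reference level were raised to it before the ratio was taken. From that low it was at least 13.7-fold higher at 4 h than at 2 h (adjusted p = 4.79e-07) and at least 72.5-fold higher at 6 h than at 2 h (adjusted p = 4.4e-10). At 6 h it also exceeded 4 h, by 5.28-fold (adjusted p = 0.0002), and 0 h, by 2.77-fold (log2 change 1.47, adjusted p = 0.00487). Taken relative to the median change of all probe sets at 6 h, the last value was 1.16.

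These 5 calls of *ceh-13* were kept under every alternative tried, including without replicate A of 6 h, where the log2 change at 6 h against 0 h was 1.44. The change at 4 h against 0 h was -0.93 (adjusted p = 0.0758) and was not called. It passed with signals raised to the reference level (adjusted p = 0.00915) and without replicate A of 0 h, B of 2 h or C of 2 h (adjusted p = 0.0189, 0.0153 and 0.0281). Of 18264 tested probe sets 155 changed as far down as *ceh-13* at 2 h, and 206 were, like it, lowered at 2 h against 0 h and raised at 6 h against 4 h.

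In the steps between later times, *ceh-13* was the only one of the 11 called at 4 h against 2 h (raised, where 6.9% of all probe sets were raised and 7.35% lowered). It was also the only one called at 6 h against 4 h (raised, where 7.73% were raised and 8.39% lowered). The unadjusted p was under 0.05 for 4 of the 11 in the first of these steps and for 1 in the other (limma). At 6 h against 2 h *ceh-13* and *mab-5* were raised and *vab-7* was lowered, with 14.3% of all probe sets raised and 14.5% lowered. With one median for all arrays, the raised share of all calls was 34.3% rather than 49.7% at 6 h against 2 h and 30.8% rather than 48% at 6 h against 4 h.

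The genes whose log2 signals followed *ceh-13* most closely over the 12 arrays were *dlc-1*, for a dynein light chain (Pearson's r = 0.974), *ftt-2*, for a 14-3-3 protein (r = 0.972), and *skr-1*, for a Skp1-related protein (r = 0.967). Of the 16958 probe sets searched 40 reached an r of 0.9. The mean signal of *ftt-2* was 4231 at 0 h, 1220 at 2 h, 4098 at 4 h and 8678 at 6 h. These correlations describe 12 arrays of 4 times and share the arrays' own variation.

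**Figure D2:**
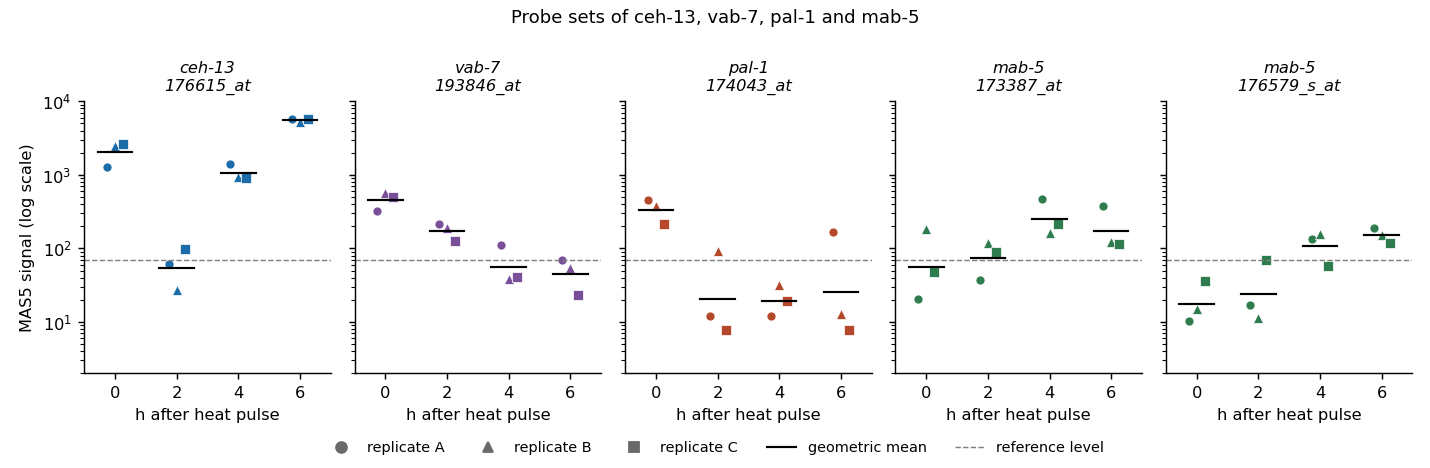
MAS5 signal on a log scale (vertical axis) against hours after the heat pulse, with a symbol for each replicate, a bar at the geometric mean of 3 arrays and a dashed line at the reference level of 69.7. *ceh-13* drops to the line at 2 h and is highest at 6 h. *vab-7* steps down at 2 h and at 4 h, and its arrays of 4 and 6 h overlap. The *pal-1* probe set is above the line at 0 h on all 3 arrays, and *mab-5* is higher at 4 and 6 h.

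By mean signal the 3 probe sets of *pal-1* were highest at 0 h, but only the brightest was called lowered. The brightest of the 3 gave 457, 381 and 215 at 0 h, 12.2, 92.9 and 7.7 at 2 h, 12.1, 32.1 and 19.3 at 4 h, and 169, 13 and 7.9 at 6 h. All 3 arrays at 0 h were above all 9 later ones, of which replicate B of 2 h and replicate A of 6 h alone exceeded the reference level.

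Against 0 h this *pal-1* probe set was at least 4.36-fold lower at 2 h (log2 change -4.02, SE 1.16, adjusted p = 0.0121, limma). The bound was 4.8-fold at 4 h (log2 change -4.10, adjusted p = 0.00912) and 3.57-fold at 6 h (log2 change -3.69, adjusted p = 0.0144). The 4 h call was kept under every alternative. The 2 h call ended without replicate A of 0 h or C of 2 h (adjusted p = 0.0502 and 0.0671), and the 6 h call without replicate A of 0 h, B of 6 h or C of 6 h (adjusted p = 0.0556, 0.0618 and 0.0812). None of the 3 steps between later times was called for it (adjusted p of at least 0.869).

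Without replicate A of 6 h, the 6 h array with the highest summed maternal and germ cell signal, the 6 h change of this probe set was -5.05 (adjusted p = 0.00149). The summed maternal and germ cell signal given above moved the same way as *pal-1*, with 5, 7 and 5 of its 7 genes lowered at 2, 4 and 6 h and none raised. Its part in the *pal-1* result was not tested.

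The next *pal-1* probe set in brightness read 192, 120 and 187 at 0 h, 121.5, 99.8 and 28.7 at 2 h, 74.6, 41.0 and 64.5 at 4 h, and 17.8, 118 and 71.2 at 6 h. At 4 and 6 h all arrays lay below all arrays of 0 h, but at 2 h replicate A overlapped with 0 h. Its log2 changes of -1.21, -1.48 and -1.61 were not called (adjusted p = 0.328, 0.2 and 0.137). With signals raised to the reference level, those at 4 and 6 h passed (adjusted p = 0.0102 and 0.0305), and without replicate A of 6 h the 6 h change was -0.83.

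The dimmest *pal-1* probe set lay near the reference level, between 4.4 and 178.5 with 5 of 12 arrays above it, and its groups overlapped in all 6 comparisons. At 6 h against 0 h its log2 change was -1.72 (adjusted p = 0.274), and -2.88 without replicate A of 6 h (adjusted p = 0.0691). With signals below the reference level raised to it, the brightest probe set correlated over the 12 arrays with the next at r = 0.671. With the dimmest it correlated at r = 0.218. Which transcripts each *pal-1* probe set reads is not given in the annotation used.

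The genes most like *pal-1*, read at its brightest probe set, were *K08E4.7* (r = 0.991), *F02H6.2* (r = 0.989) and *T21C9.13* (r = 0.974), and 262 of 16956 probe sets reached an r of 0.9. All 3 were above the reference level on average at 0 h, with mean signals of 229, 235 and 638, against 5.83, 13.3 and 41.2 at 4 h.

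*vab-7*, the even-skipped homolog, declined more gradually. Its signal was 325, 562 and 508 at 0 h, 215, 188 and 127 at 2 h, 113, 38.4 and 40.8 at 4 h, and 68.8, 54.4 and 23.2 at 6 h. The groups at 0 h and 2 h overlapped neither with each other nor with any later group. All arrays of 0 and 2 h were above the reference level, as was 1 array at 4 h and none at 6 h.

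The 2 h change of *vab-7* against 0 h was -1.39 on the log2 scale (SE 0.63, 2.62-fold lower, adjusted p = 0.115, limma), which was not called although the groups were apart. Against 0 h the gene was at least 5.53-fold lower at 4 h (log2 change -3.01, adjusted p = 0.000714) and at least 6.49-fold lower at 6 h (log2 change -3.35, adjusted p = 0.000175). Both calls were kept under every alternative, and without replicate A of 6 h the 6 h change was -3.67.

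Between 2 and 6 h *vab-7* fell further, to at least 2.48-fold lower at 6 h than at 2 h (log2 change -1.96, adjusted p = 0.0208). This call ended without replicate A of 2 h, B of 2 h or C of 6 h (adjusted p = 0.079, 0.0657 and 0.0826), and without replicate A of 6 h the change was -2.28 (adjusted p = 0.0134). From 2 to 4 h the change was -1.62 (adjusted p = 0.0926), which passed without replicate A of 4 h (adjusted p = 0.0439) and with signals raised to the reference level (adjusted p = 0.0445), as did the 2 h change against 0 h (adjusted p = 0.00521). Its course was followed most closely by *fbxc-29* (r = 0.985), *dot-1.4* (r = 0.983) and *lido-2* (r = 0.983), and 394 of 16958 probe sets reached an r of 0.9.

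*mab-5*, the Antennapedia-class gene of the posterior body, was the member whose probe sets were raised at 4 h. The brighter of the 2 gave 20.6, 182 and 47.2 at 0 h, 37.3, 119.3 and 88.8 at 2 h, 472, 161 and 217 at 4 h, and 376, 122 and 114 at 6 h. Replicate A was the highest at both 4 and 6 h, and 1 array of 0 h overlapped with both groups. The dimmer gave 10.2, 14.9 and 36.3 at 0 h, 17.0, 11.4 and 69.8 at 2 h, 136, 157 and 58.5 at 4 h, and 192, 150 and 120 at 6 h. There all arrays of 4 and 6 h were above all arrays of 0 h, and those of 6 h above those of 2 h too.

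At 4 h against 0 h the brighter *mab-5* probe set was at least 2.65-fold higher (log2 change 2.18, SE 0.78, adjusted p = 0.0377, limma). The call ended without replicate A or C of 0 h (adjusted p = 0.181 and 0.0889) and without A or C of 4 h (adjusted p = 0.177 and 0.072). It also ended with plain eBayes (adjusted p = 0.0788). At 6 h its change of 1.63 was not called (adjusted p = 0.109). It passed without replicate B of 0 h, at 2.48 (adjusted p = 0.017), and was 1.07 without replicate A of 6 h.

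The dimmer *mab-5* probe set was at least 1.55-fold higher at 4 h than at 0 h (log2 change 2.61, adjusted p = 0.0352) and at least 2.17-fold higher at 6 h than at 0 h (log2 change 3.10, adjusted p = 0.00982). The 6 h call was kept under every alternative, with a log2 change of 2.92 without replicate A of 6 h. The 4 h call ended without replicate A or B of 0 h (adjusted p = 0.115 and 0.0805), without A or B of 4 h (adjusted p = 0.101 and 0.118), and with signals raised to the reference level (log2 change 0.71, adjusted p = 0.131). All 3 arrays of 0 h and 1 of 4 h were under the reference level, so the size of the 4 h change at this probe set rests on signals below it.

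At 6 h against 2 h the dimmer *mab-5* probe set was at least 2.17-fold higher (log2 change 2.67, adjusted p = 0.0315). This ended with either other scaling (adjusted p = 0.0664 and 0.068), without replicate A or B of 2 h (adjusted p = 0.0913 and 0.129), and without A, B or C of 6 h (adjusted p = 0.0928, 0.0741 and 0.0544). The genes most like *mab-5* at its brighter probe set were *F16B4.7* (r = 0.915), *nlp-23* (r = 0.915) and *F54C1.1* (r = 0.896).

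*lin-39*, the Hox gene of the mid-body, had a signal of 118, 89.3 and 7.1 at 0 h, 93.2, 136 and 7.6 at 2 h, 194, 148.5 and 187 at 4 h, and 52.8, 150 and 21.7 at 6 h. All 3 arrays at 4 h were above the reference level and above every array of 0 and 2 h. The 4 h change was 2.06 on the log2 scale (SE 1.15, at least 1.94-fold higher, adjusted p = 0.202, limma), so it was not called. No gene reached an r of 0.9 with *lin-39*, the closest being *ubql-1* (r = 0.848), *T04C9.1* (r = 0.83) and *F36H1.3* (r = 0.81).

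The 3 members of the Abdominal-B class, *egl-5*, *php-3* and *nob-1*, are the posterior Hox genes. *egl-5* was above the reference level on 1 of 12 arrays, replicate A of 6 h at 151, and its other arrays lay between 3.4 and 54.5. *php-3* was above it on none, with signals of 4.2 to 17.8. Neither was tested, and apart from that 1 array of *egl-5* the arrays give only that the signal was not above the reference level.

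*nob-1*, which patterns the posterior of the embryo, was read by 3 probe sets. With signals below the reference level raised to it, these correlated with each other at r of -0.409 to 0.553 over the 12 arrays. At the brightest 11 of 12 arrays were above the reference level, between 72.7 and 227, replicate C of 6 h being at 13. Its groups overlapped in all 6 comparisons, and none was called (adjusted p of at least 0.792). The next ranged from 11.4 to 305, and its change of -1.95 at 4 h against 0 h was not called (adjusted p = 0.238).

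The dimmest *nob-1* probe set gave 2.4, 17.4 and 15 at 0 h, 91.3, 9.3 and 7.7 at 2 h, 63.1, 90.0 and 44.6 at 4 h, and 81.7, 98.7 and 64.1 at 6 h. All arrays of 4 and 6 h were above those of 0 h, yet only 2 of the 3 at 6 h and 1 of the 3 at 4 h were above the reference level. At 6 h against 0 h it was called raised (log2 change 3.23, SE 1.12, adjusted p = 0.0267, limma), with a bound of only 1.15-fold. The call ended with signals raised to the reference level (log2 change 0.24, adjusted p = 0.364) and without replicate A of 0 h, A of 6 h or B of 6 h (adjusted p = 0.136, 0.0594 and 0.0739). The 4 h change was 2.89 (adjusted p = 0.0575), and it passed without replicate B of 0 h or A of 2 h (adjusted p = 0.0496 and 0.0427). The genes most like *nob-1* at its brightest probe set were *F49B2.3* (r = 0.876), *srbc-23* (r = 0.864) and *F56F10.1* (r = 0.861), and none reached an r of 0.9.

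**Figure D3:**
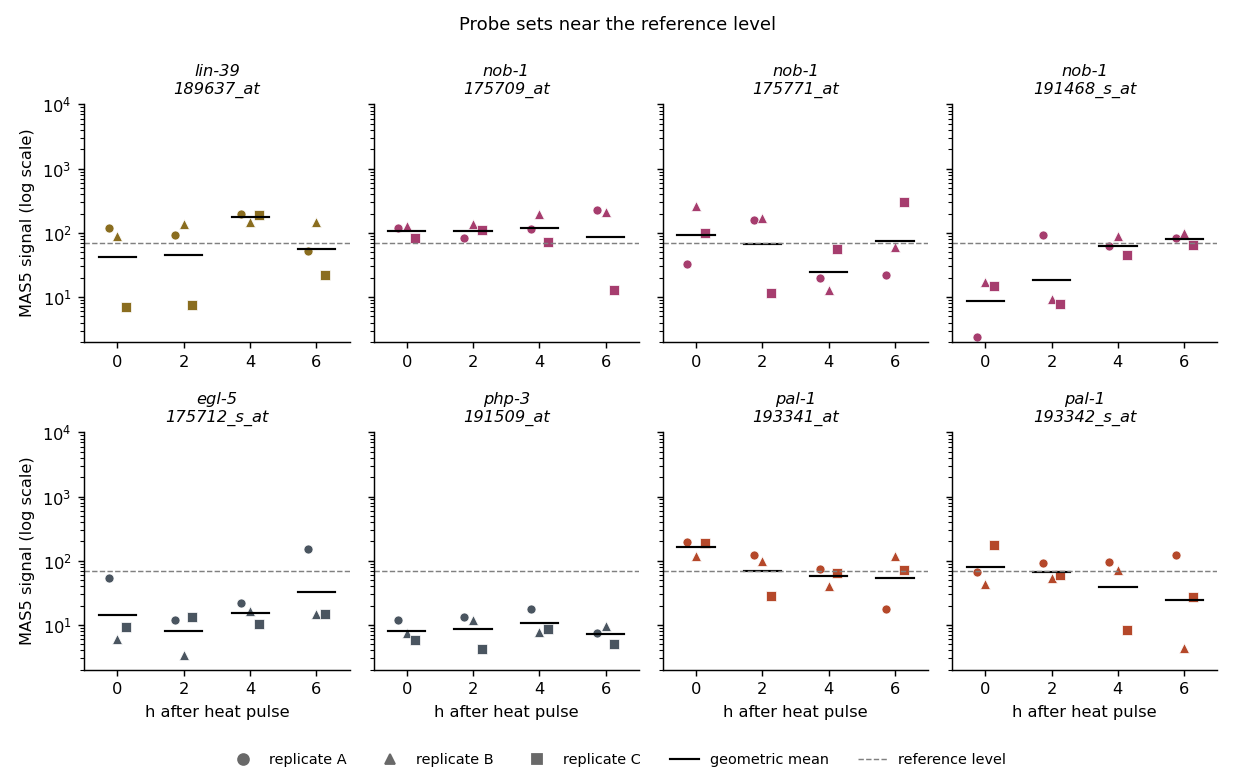
MAS5 signal on the log scale of the preceding signal plot (vertical axis) against hours after the heat pulse, for the member probe sets near the reference level (dashed line), with a symbol for each replicate and a bar at the geometric mean. *php-3* stays below the line on all 12 arrays and *egl-5* on 11, while the 3 *nob-1* panels differ in course.

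All 8 genes lie on chromosome III. In the RefSeq annotation (assembly WBcel235) their order is *pal-1*, *lin-39*, *ceh-13*, *mab-5*, *egl-5*, *vab-7*, *php-3* and *nob-1*. No protein coding gene separates *lin-39* from *ceh-13* or *php-3* from *nob-1*, 37 separate *ceh-13* from *mab-5*, and 1 separates *mab-5* from *egl-5*. Of the neighbours *ceh-13* and *lin-39*, *ceh-13* was called at 2 and 6 h against 0 h and *lin-39* at neither, a difference that was not tested. Their log2 signals had r = -0.088 over the 12 arrays, signals below the reference level being raised to it.

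Hox proteins act with cofactors, and of 5 cofactor genes all were tested. For these and the gene lists below, the shares of all tested probe sets called at 2, 4 and 6 h apply. They were 15.5%, 17.1% and 21.7% raised and 9.55%, 11.9% and 15.6% lowered, and no list was tested against them. *ceh-20*, for a Pbx protein, averaged 2755 ± 293 at 0 h, 8280 ± 972 at 2 h, 17920 ± 778 at 4 h and 14560 ± 327 at 6 h (n = 3 each, with the SD). Its log2 change against 0 h at 6 h was 2.41 (adjusted p = 1.58e-10, limma). *unc-62*, for a Meis protein, averaged 314 ± 83.2, 7136 ± 859, 2906 ± 668 and 4671 ± 1480 at 0, 2, 4 and 6 h, with a change of 3.89 at 6 h (adjusted p = 7.68e-11).

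In the opposite direction, *ceh-40*, for a different Pbx protein, averaged 4245 ± 389, 2898 ± 445, 1056 ± 184 and 204 ± 29.4 at 0, 2, 4 and 6 h. It was 20.9-fold lower at 6 h (log2 change -4.39, adjusted p = 8.37e-13) and was not called at 2 h (adjusted p = 0.0633). *psa-3*, for a Meis-related protein, was at least 24.6-fold lower at 6 h (log2 change -5.89, adjusted p = 0.000186), and its change was -6.96 without replicate A of 6 h. *ceh-60*, for another Pbx protein, stayed near the reference level, with a change of 1.83 at 6 h (adjusted p = 0.0977). So at the time of the highest *ceh-13* signal, 1 Pbx and 1 Meis gene were raised and 1 Pbx and 1 Meis-related gene were lowered, and these 4 calls at 6 h were kept under all 19 alternatives.

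**Figure D4:**
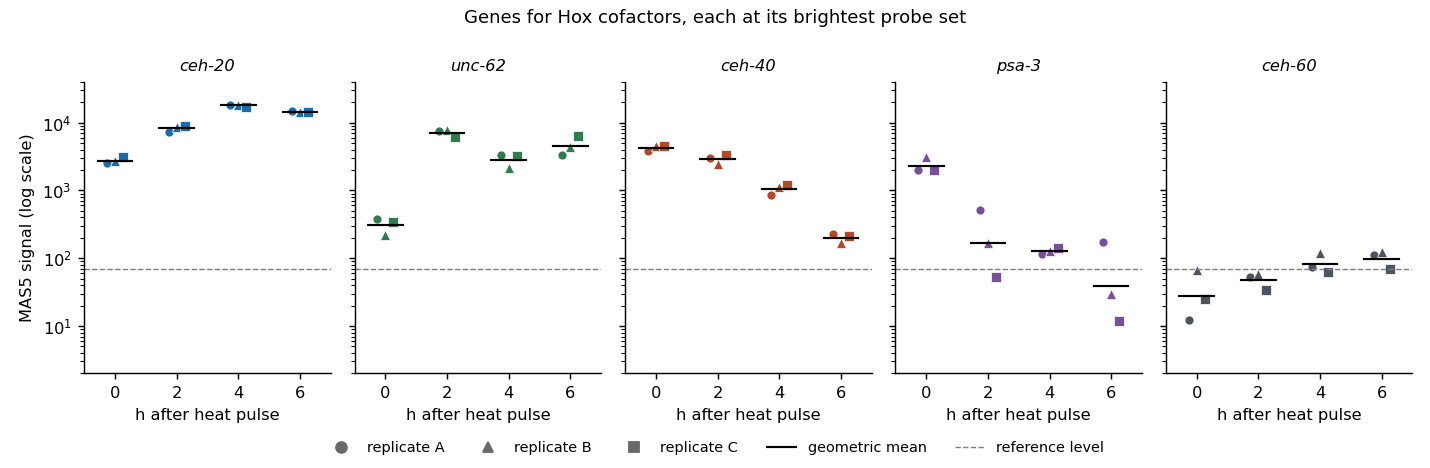
MAS5 signal on a log scale (vertical axis) against hours after the heat pulse for 5 genes of Hox cofactors, each at its brightest probe set, with a symbol for each replicate, a bar at the geometric mean and the reference level dashed. *ceh-20* and *unc-62* are above their 0 h arrays at all later times, *ceh-40* and *psa-3* are below theirs at all later times, and *ceh-60* stays near the line.

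Of 11 genes that repress or maintain Hox expression 10 were tested, with 2, 2 and 4 raised at 2, 4 and 6 h and 0, 1 and 0 lowered. The largest change was that of *spat-3*, for a RING finger protein of the Polycomb repressive complex kind, which averaged 246 ± 31.2, 18990 ± 4400, 19350 ± 385 and 3265 ± 70.1 at 0, 2, 4 and 6 h (SD, n = 3 each; log2 change 3.74 at 6 h, adjusted p = 1.13e-12, limma). *egl-27*, for an MTA family protein, was raised at all 3 times, with a change of 2.57 at 6 h, and *sor-1* at 6 h (1.31, adjusted p = 0.000148). *sop-2*, for a SAM domain repressor of Hox genes, was called at 6 h (1.32, adjusted p = 0.0486) and *mes-3*, of the *C. elegans* PRC2 complex, was lowered at 4 h (-0.95, adjusted p = 0.0362). Of 19 alternatives 14 ended the *sop-2* call, leaving out replicate A of 6 h among them (adjusted p = 0.0578), and 5 that of *mes-3*.

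Wnt signals regulate several Hox genes in *C. elegans*, and of 17 genes of the pathway 6, 4 and 3 were raised and 4, 2 and 3 lowered at 2, 4 and 6 h. Whether these counts differ from the shares over all probe sets was not tested. The other 7, 11 and 11 were not called, among them the ligand gene *egl-20* and the beta-catenin gene *bar-1* at all 3 times. Both lay near or below the reference level, with means of 20.4 to 105 and 40 to 98.8. Among ligands, *mom-2* was lowered at all 3 times (-3.52 on the log2 scale at 6 h, adjusted p = 0.0022, limma), *cwn-1* at 6 h (-2.87, adjusted p = 0.0116, and -1.75 without replicate A of 6 h) and *lin-44* at 2 h (-3.07, adjusted p = 0.00635). Among Frizzled receptors, *mig-1* was raised at all 3 times (4.29 at 6 h), *mom-5* was lowered at 6 h (-3.38) and *cfz-2* was lowered at 2 and 4 h (-1.19 and -1.83).

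Inside the cell, the beta-catenin genes *wrm-1* (1.53) and *sys-1* (1.73), the kinase gene *lit-1* (1.63) and the APC gene *apr-1* (1.28) were raised at 2 h. The beta-catenin gene *hmp-2* was also called there (2.54, ended by 4 of 19 alternatives), and *pop-1*, for the TCF factor, was lowered (-2.94). At 4 h *wrm-1* (1.12), *lit-1* (1.14) and *pry-1*, for axin (1.12), were called, the last ended by 4 alternatives and *lit-1* by 2. At 6 h *pry-1* (1.40) and *apr-1* (1.72) were raised. The 2 h call of *mom-2* (-2.88) ended in 1 alternative, without replicate C of 2 h.

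Of 9 genes that control maternal *pal-1* or act beside it in early blastomeres, 2, 1 and 1 were raised and 1, 1 and 3 lowered at 2, 4 and 6 h. *mex-3*, for the RNA binding protein that represses *pal-1* translation, was raised at 2 and 4 h (log2 changes 1.39 and 2.04, adjusted p = 0.028 and 0.00224, limma), the 2 h call ending under 6 of 19 alternatives. At 6 h *spn-4* (-5.19), *mex-6* (-4.49) and *pie-1* (-4.13), for CCCH or RRM proteins of the early embryo, were lowered, *pie-1* at 2 and 4 h as well. Without replicate A of 6 h, the changes of *spn-4*, *mex-6* and *pie-1* were -6.60, -6.12 and -4.62. *mex-6* was no longer called without replicate B of 6 h. *skn-1*, at 2 h (3.64, adjusted p = 0.0389), and *par-1*, at 6 h (1.89, adjusted p = 0.0376), were raised, and 8 of 19 alternatives ended each call. The mean signal of *mex-3* was 894 at 0 h, 2279 at 2 h, 3562 at 4 h and 454 at 6 h.

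Of 11 genes known as targets of PAL-1 in the C lineage, 2, 2 and 3 were raised and 4, 5 and 6 lowered at 2, 4 and 6 h. The raised counts include *hlh-1*, the gene driven by the heat shock promoter, so its calls are no measure of PAL-1 targets. *hlh-1*, itself a PAL-1 target, and *unc-120*, for an SRF-like muscle factor (162 ± 25 at 0 h, 838 ± 111 at 2 h, 11790 ± 1550 at 4 h and 13580 ± 1920 at 6 h), were raised at all 3 times. Another muscle factor gene, *hnd-1*, averaged 16520 ± 4120, 1966 ± 1600, 639.5 ± 161 and 203 ± 69.1 at 0, 2, 4 and 6 h (SD, n = 3 each) and fell by 6.38 on the log2 scale at 6 h (adjusted p = 4.91e-06, limma). The T-box genes *tbx-8* (-2.34) and *tbx-9* (-3.17) and the epidermal GATA factor gene *elt-1* (-3.92) were lowered at all 3 times. *scrt-1*, for a Snail family protein, was lowered at 4 and 6 h (-2.77 and -3.45) and *cwn-1*, named above, at 6 h. *nhr-25*, for a nuclear receptor of epidermis, was called raised at 6 h (1.44, adjusted p = 0.0495), and 14 of 19 alternatives ended that call, leaving out replicate A of 6 h among them (adjusted p = 0.0874). *lin-26* and *elt-3* were not called at any time. Over these 5 lists 26 genes were called at 6 h, and without replicate A of 6 h all 26 changes kept their direction and 24 calls were kept, *sop-2* and *nhr-25* being the exceptions.

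Markers of other tissues moved in part. At 6 h against 0 h 2 of 7 epidermis markers, 1 of 9 neuron markers, 1 of 6 intestine markers and 2 of 5 pharynx markers were raised, and 1, 1, 3 and 0 were lowered. The summed epidermis signal was 1163 to 2121 at 6 h, against 1615 to 2106 at 0 h. The summed intestine signal was 1086 to 1320, against 32780 to 42710, and at 0 h it was largely *end-1* (mean 29310, against 252 at 6 h). *end-3* and *elt-7* were also lowered, *elt-2* was raised (mean 12 at 0 h, 91 at 6 h), and *ges-1* and *vit-6* were not called. The summed pharynx signal was 1750 to 2116, against 718 to 760, with *tnc-2* and *ceh-22* raised. *pha-4*, *myo-2* and *myo-1* were not called, and the median log2 change of the 5 was 0.063. The summed neuron signal was 7264 to 10660 at 6 h, against 12540 to 14350 at 0 h. Yet 7 of 9 neuron markers were not called, and the median log2 change of the 9 was 0.56. Mean *unc-30* fell from 3631 to 47.5 and *unc-64* rose from 48.3 to 506, while *snb-1*, at 8682 and 6986, was not called. Of 4 heat shock genes tested 1, 1 and 2 were raised at 2, 4 and 6 h and none lowered. At 2 h this was *hsp-1*, and *hsp-16.2*, *hsp-16.41* and *hsp-70* were not called. The part of these tissues and of the heat pulse in the changes of the members was not tested.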

How the data were processed

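Total RNA of whole embryos was copied to cDNA, amplified in 20 PCR cycles, labeled with biotin and hybridized to Affymetrix *C. elegans* arrays. The authors deposited MAS5 signal intensity, linear and scaled per array, in 1 column for each of 12 arrays. Their trimmed means, 2% left off at each end, were 500.2 to 500.3. No MAS5 version was found in the labels or methods, and scaling to 1 mean hides any change in total mRNA.

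Log2 signals were fitted with limma 3.58.1 in R 4.3.3 (lmFit, eBayes with trend and robust), with 4 groups and 6 contrasts and no block. Replicates correlated at r = 0.835 to 0.884. No batch is given beside 1 date shared by the sample titles. On such arrays the number of replicates limits the precision. The code was tested on simulated data.

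Of 22548 probe sets 20766 carried 1 gene in the platform annotation, 887 several and 895 none, and 20701 were found in RefSeq. For the other gene lists the brightest probe set of 1 gene was read, and up to 4 genes with the largest called change at 6 h were named, with those whose call differed between times. Members were given at every probe set, and the 3 genes with the highest Pearson's r to each member's brightest probe set were named, signals below the reference level being raised to it. The r values between member probe sets were computed with the same raising. The members and lists were chosen with earlier results of these data known. Promoters and proteins of the members were not analysed here. Alternatives were other scalings, filters and estimates, signals raised to the reference level, a fold limit alone, a replicate block and leaving out each array.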

Additional observations from a re-analysis of the deposited data

How the results depend on the processing

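The 27 log2 changes given for the members kept their direction in all 507 alternative values, of which 466 stayed on the same side of the threshold, 29 lost a call and 12 gained one. With a fold of at least 1.7 alone, with no test, member probe sets raised and lowered were 1 and 4 at 2 h, 4 and 6 at 4 h, and 4 and 4 at 6 h against 0 h. Between later times they were 5 and 3 at 4 h against 2 h, 4 and 2 at 6 h against 2 h, and 2 and 1 at 6 h against 4 h. The same limit over all probe sets gave 5456 and 4553, 5908 and 4630, 7012 and 4749, 4171 and 4101, 6070 and 4581, and 5033 and 3562 in that order, where the test gave 2836 and 1745, 3122 and 2181, 3964 and 2858, 1261 and 1343, 2610 and 2646, and 1412 and 1532. Signals raised to the reference level gave 3 member probe sets lowered at 2 h against 0 h. They gave 1 raised and 4 lowered at 4 h against 0 h, 2 and 3 at 6 h against 0 h, and 2 and 1 at 4 h against 2 h. Plain eBayes gave 1 raised at 4 h against 0 h, and either other scaling 1 raised at 6 h against 2 h. A reference level at the 60th percentile gave 2 raised at 6 h against 0 h. Leaving out each array gave 1 to 2 member probe sets lowered at 2 h against 0 h. Against 0 h it gave 0 to 3 raised and 2 to 3 lowered at 4 h, and 2 to 4 raised and 1 to 2 lowered at 6 h. Between later times it gave 0 to 1 lowered at 4 h against 2 h, and 1 to 2 raised and 0 to 1 lowered at 6 h against 2 h. The cause of these shifts was not tested.

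Arrays of 1 letter did not deviate together (r from -0.0258 to 0.0332 over 18 pairs), so the letters only name samples. The fit with a replicate block called 3 member probe sets raised and 2 lowered at 6 h against 0 h, and it changed no call of a member probe set. It ended the calls of *mes-3* at 4 h, *mex-3* at 2 h, and *sop-2*, *par-1* and *nhr-25* at 6 h. Signals near the reference level limit what can be read for *lin-39*, *nob-1*, *egl-5*, *php-3* and the dimmer *pal-1* probe sets.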
